A study of Homo sapiens with 8 samples.

Results

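Prostaglandins are short-lived lipid signals, and the 10 genes described here cover the making, removal and sensing of prostaglandin E2 in HuCCT1, an established human cholangiocarcinoma (bile duct cancer) cell line. The genes were given as a list of symbols: PTGS1, PTGS2, PTGES, PTGES2, PTGES3, HPGD, PTGR1, SLCO2A1, PTGER2 and PTGER4. All 10 were measured, of 19775 genes with a probe set assigned to 1 symbol on the Affymetrix HG-U133 Plus 2 array. A gene was represented by its main probe set, chosen by the highest mean log2 value over the 8 arrays, a measure that takes no account of group. The list was drawn up with earlier results of this comparison known. The members' differences are therefore given as a description of these arrays.

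The 8 arrays held 4 samples of HuCCT1 cells with a control (scrambled) shRNA and 4 with the hairpin labelled YAP shRNA 1, directed at YAP1, the transcriptional coactivator at the end of the Hippo pathway. In both groups the hairpin was induced with doxycycline at 100 ng/ml for 3 days before seeding, so the control cells carried the same drug. A single YAP1 hairpin was measured. The labels name neither separate cultures nor clones, so the replicate spread behind each p-value may be technical only. The comparison asks how transcript levels differ when YAP1 is knocked down.

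Prostaglandin synthesis begins with arachidonic acid released from membrane phospholipids. The cyclooxygenases, encoded by PTGS1 and the inducible PTGS2, turn it into prostaglandin H2, and the prostaglandin E synthases PTGES, PTGES2 and PTGES3 turn that into prostaglandin E2. Signalling ends when SLCO2A1 carries the lipid into the cell and HPGD, the NAD-dependent hydroxyprostaglandin dehydrogenase, oxidises it, after which PTGR1 reduces the product. PTGER2 and PTGER4 encode the EP2 and EP4 receptors, which couple to the stimulatory G protein and raise cAMP. In bile duct and colon cancers the pathway is best known for high PTGS2 and low HPGD.

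YAP1 itself was 12.64 ± 0.086 on the control arrays and 10.50 ± 0.070 on the YAP shRNA arrays (log2 values, mean ± SD, n = 4 and 4). All 7 keratin, adhesion and SOX9 markers of biliary epithelium lay above the upper quartile of gene levels (10.46). Of 6 leukocyte markers, 4 lay below the lower quartile (5.15), as did 3 of 7 for fibroblasts and 2 of 6 for endothelium. Their summed level ranged from 7.46 to 7.69 on control and 7.51 to 7.68 on YAP shRNA arrays for leukocytes, from 8.90 to 9.07 and 9.20 to 9.29 for fibroblasts, and from 7.81 to 8.07 and 7.95 to 8.11 for endothelium (log2 of the sum). For 6 hepatocyte markers it ran from 12.73 to 12.81 and from 12.93 to 12.98, and for the 7 biliary markers from 16.30 to 16.32 and from 16.33 to 16.34. Most of the hepatocyte sum was SERPINA1, with means of 12.72 and 12.91, the only 1 of those 6 markers above the upper quartile. The fibroblast, hepatocyte and biliary sums were higher on all YAP shRNA arrays, with 1 of 7, 1 of 6 and 2 of 7 markers called as rises. The called fibroblast marker was COL1A1, with means of 7.95 on control and 8.48 on YAP shRNA arrays, and no other fibroblast marker passed. Among the leukocyte markers, CSF1R was called as a rise and PTPRC as a fall. The part of these markers in the results was not tested. Control shRNA replicate 4 stood apart, at -22.95 on the second principal component where the other 7 arrays lay between -6.39 and 12.29. Several of the results that move with it are given with and without it. Values carry no detection call, so a low value cannot be told from background.

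Among the 10 genes, HPGD and PTGES rose with the YAP shRNA, PTGER2 and PTGER4 fell, and the other 6 did not pass the test (limma with Benjamini-Hochberg adjustment over the whole table, called where the adjusted p is below 0.05). In bulk RNA, fewer cells with a transcript and less of it per cell cannot be told apart. Of the 19775 genes, 16.7% were called, 9.49% as rises and 7.17% as falls. The members were picked with this comparison known, so nothing is read from their share. The median log2 change was -0.06 over the 10 members and 0.01 over all genes. The genes of synthesis and those of removal each included 1 that rose, and both receptor genes fell.

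**Figure D1:**
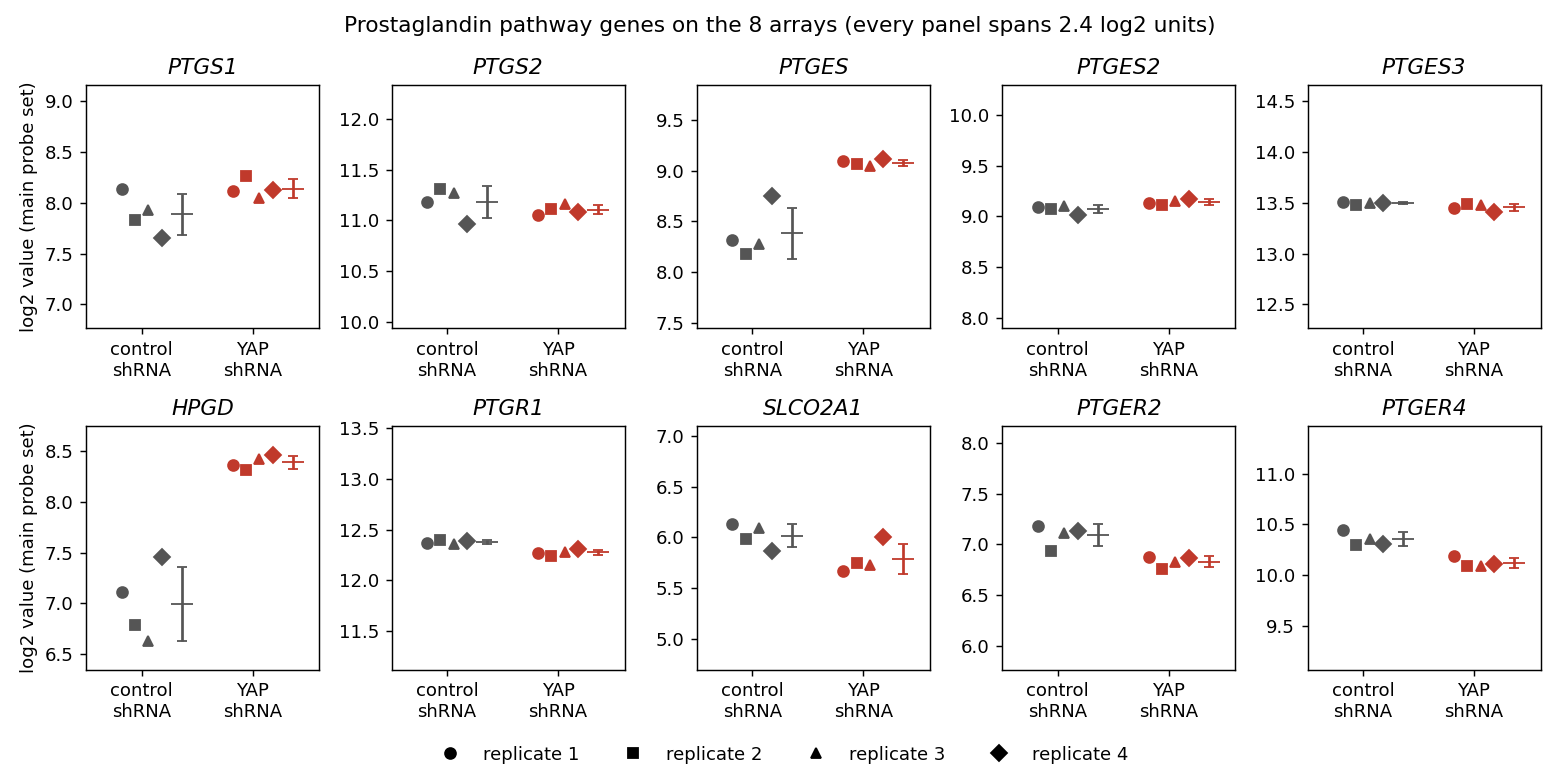
Log2 value of each gene's main probe set (vertical axis; every panel spans the same number of log2 units) on the 4 control shRNA arrays (grey) and 4 YAP shRNA arrays (red). Marker shape gives the replicate number, and the bar beside the points is the mean with its SD. The HPGD and PTGES groups are well apart, with control shRNA replicate 4 the highest control array in both, while the PTGS2 groups overlap.

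**Figure D2:**
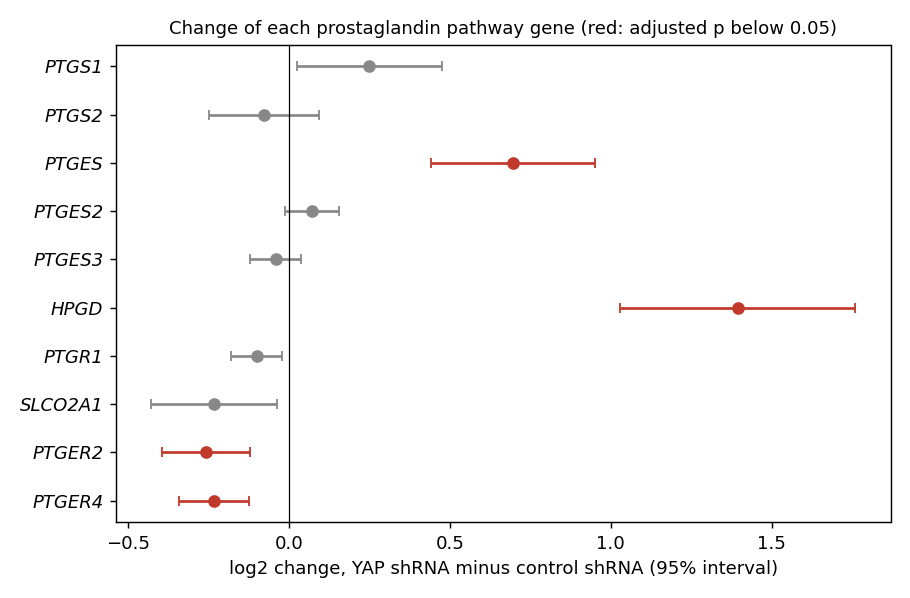
Log2 change of each gene, YAP shRNA minus control shRNA (horizontal axis), with its 95% interval from the limma fit. Red points passed the test over all genes. HPGD lies at 1.39, PTGES at 0.70, and PTGER2 and PTGER4 at -0.26 and -0.23.

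The promoters of the 4 called genes are shown because these genes moved in 2 pairs, both up or both down. Each is the 250 bases before the gene's start in RefSeq's table for GRCh38.p14, written 5′ to 3′ on the gene's own strand. The array files name no build, and these positions come from RefSeq alone. The windows are chr4:174522894-174523143 on the minus strand for HPGD, chr9:129753043-129753292 on the minus strand for PTGES, chr14:52314062-52314311 on the plus strand for PTGER2 and chr5:40679665-40679914 on the plus strand for PTGER4. Capitals mark the GC box GGGCGG on either strand, the core bound by zinc fingers of the SP1 type.
HPGD: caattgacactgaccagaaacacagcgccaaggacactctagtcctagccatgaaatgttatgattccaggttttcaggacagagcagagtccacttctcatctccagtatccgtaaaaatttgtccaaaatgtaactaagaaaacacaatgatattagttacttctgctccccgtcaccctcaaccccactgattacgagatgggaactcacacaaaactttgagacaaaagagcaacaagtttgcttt
PTGES: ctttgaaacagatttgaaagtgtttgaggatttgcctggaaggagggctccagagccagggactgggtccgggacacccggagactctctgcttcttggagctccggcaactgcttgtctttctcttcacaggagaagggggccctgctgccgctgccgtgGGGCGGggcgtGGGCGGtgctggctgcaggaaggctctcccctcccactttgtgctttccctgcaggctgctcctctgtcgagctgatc
PTGER2: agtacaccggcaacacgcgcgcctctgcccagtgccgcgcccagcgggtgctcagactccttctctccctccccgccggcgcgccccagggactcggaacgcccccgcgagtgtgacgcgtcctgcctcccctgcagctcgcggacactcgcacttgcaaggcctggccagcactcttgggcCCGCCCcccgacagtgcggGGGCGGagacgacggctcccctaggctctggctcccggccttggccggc
PTGER4: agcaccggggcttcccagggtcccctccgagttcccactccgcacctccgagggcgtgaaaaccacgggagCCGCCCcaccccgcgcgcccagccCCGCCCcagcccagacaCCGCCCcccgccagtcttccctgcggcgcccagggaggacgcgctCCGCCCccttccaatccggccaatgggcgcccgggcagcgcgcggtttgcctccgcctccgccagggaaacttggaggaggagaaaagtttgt

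The 4 windows differ in base composition. GC content was 42% for HPGD and 61.2% for PTGES, and 74% and 72.8% for PTGER2 and PTGER4, beside a median of 58% and quartiles of 46.4% and 68% over 35116 promoter windows of the same length. The HPGD window held no GC box. PTGES had 2, the first beginning 89 and the second 78 bases before the start. PTGER2 had 2 and PTGER4 had 4. Such a box stood in 6 of the 9 members that the table holds and in 42.6% of all windows. SLCO2A1 was not among the 9.

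Other short motifs were searched on both strands. The TEAD site CATTCC, the core bound by the DNA-binding partners of YAP, occurred in 0 of the 9 windows and in 11.9% of all. The E-box CACCTG of the SNAI and ZEB type occurred in 0 of 9 and 17.5% of all, the AP-1 site TGANTCA in 0 of 9 and 6.57%, and the CREB core TGACGT in 0 of 9 and 7.1%. The TATA box TATAAA was found only in the PTGS2 window among these 9, starting 32 bases before its start, and in 10.7% of all. The absence of a match says only that these letters are not in these windows.

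Of the cyclooxygenase genes, neither passed the test. PTGS2, the inducible enzyme, read 11.18, 11.31, 11.27 and 10.96 on control arrays 1 to 4 and 11.06, 11.12, 11.16 and 11.08 on YAP shRNA arrays 1 to 4. The groups overlapped, since control shRNA replicate 4 was the lowest of all 8. The log2 change was -0.08 with a standard error of 0.075 and a 95% interval of -0.25 to 0.10 (limma adjusted p = 0.573). Without control shRNA replicate 4 it was -0.15 (limma adjusted p = 0.0584).

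PTGS1, the constitutive enzyme, read 8.14, 7.83, 7.92 and 7.66 on control arrays and 8.12, 8.27, 8.05 and 8.12 on YAP shRNA arrays. Control shRNA replicate 1 lay within the YAP shRNA range and the other controls below it. The change was 0.25 with an interval of 0.02 to 0.48 (limma adjusted p = 0.131). It passed only when control shRNA replicate 1 was left out, at 0.33 (limma adjusted p = 0.0304).

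PTGES, the inducible microsomal prostaglandin E synthase, read 8.32, 8.18, 8.28 and 8.75 on control arrays. It read 9.09, 9.06, 9.04 and 9.11 on YAP shRNA arrays, all above every control array. The rise was 1.62-fold, or 0.70 on the log2 scale (standard error 0.11; limma adjusted p = 0.00335; two-sided exact permutation p = 0.0286, the smallest that 4 against 4 allows). The spread lay almost wholly among the controls (SD 0.25, against 0.030 with the YAP shRNA), where replicate 4 was highest. Without that array the change was 0.82 (limma adjusted p = 4.95e-05).

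The remaining E synthases did not pass the test. PTGES2, a membrane-associated form, ran from 9.02 to 9.10 on control arrays and from 9.11 to 9.18 on YAP shRNA arrays, a change of 0.07 (interval -0.01 to 0.16; limma adjusted p = 0.244) although the groups did not overlap. PTGES3, the cytosolic synthase that is also the HSP90 co-chaperone p23, ran from 13.48 to 13.51 and from 13.41 to 13.49. Its change was -0.04 (interval -0.12 to 0.04; limma adjusted p = 0.507). Both intervals end below the lower bound of that for the main PTGES probe set, 0.44. The second PTGES probe set changed by 0.11, which lies within the PTGES2 interval.

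HPGD showed the largest change of the 10 in either direction. It read 7.11, 6.78, 6.63 and 7.46 on control arrays 1 to 4 and 8.36, 8.31, 8.43 and 8.46 on YAP shRNA arrays 1 to 4. Every YAP shRNA array was above every control array. The rise was 2.63-fold, 1.39 on the log2 scale with a standard error of 0.16 and an interval of 1.03 to 1.76 (limma adjusted p = 0.000627; exact permutation p = 0.0286). Of 19775 genes, 12 rose by at least as much, HPGD itself included.

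The HPGD control values were also the most scattered of the 10 genes, with an SD of 0.37 against 0.067 with the YAP shRNA. Control shRNA replicate 4 was again the highest of its group. Without it the change was 1.55 (limma adjusted p = 0.00013). With each of the 8 arrays left out in turn, the change stayed between 1.27 and 1.55.

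By the likeness measure used, the root mean square difference of centred log2 values over the 8 arrays, the genes nearest to HPGD were S100A14 (0.11), ANKRD22 (0.12) and CLIC5 (0.13). Their log2 changes were 1.41, 1.31 and 1.37. The genes nearest to PTGS2 were MPHOSPH8 (0.027), MT1E (0.035) and ZSCAN16 (0.038), with changes of -0.05, -0.03 and -0.02. The measure includes the difference between the groups, so near genes must have changes close to those of HPGD or PTGS2. Their like changes are therefore no separate result.

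The other genes of removal were lower with the YAP shRNA without passing the test. PTGR1, the reductase that acts after HPGD and also inactivates leukotriene B4, read 12.37, 12.40, 12.35 and 12.39 on control arrays and 12.27, 12.25, 12.28 and 12.31 on YAP shRNA arrays. These groups did not overlap, and the change was -0.10 (interval -0.18 to -0.02; limma adjusted p = 0.0865). It passed where dim genes were left out or the spread was modelled by level, with limma adjusted p from 0.01 to 0.0433.

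SLCO2A1, the prostaglandin uptake transporter, read 6.13, 5.98, 6.09 and 5.87 on control arrays and 5.66, 5.74, 5.73 and 6.003 on YAP shRNA arrays. YAP shRNA replicate 4 lay among the controls. The change was -0.23 (interval -0.43 to -0.04; limma adjusted p = 0.107), and -0.30 without that array (limma adjusted p = 0.0291). With array weights it also passed (limma adjusted p = 0.0372).

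Both receptor genes fell. PTGER4, encoding EP4, read 10.45, 10.30, 10.36 and 10.30 on control arrays and 10.19, 10.09, 10.09 and 10.11 on YAP shRNA arrays, with no overlap. It fell by 0.23 with a standard error of 0.048, a 1.18-fold difference (limma adjusted p = 0.0111; exact permutation p = 0.0286). The call was lost when the gene's probe sets were averaged, at -0.18 (limma adjusted p = 0.0972).

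PTGER2, encoding EP2, read 7.18, 6.93, 7.11 and 7.13 on control arrays and 6.88, 6.75, 6.83 and 6.86 on YAP shRNA arrays. The groups did not overlap, with control shRNA replicate 2 nearest to the other group. It fell by 0.26 (standard error 0.060; limma adjusted p = 0.0199; exact permutation p = 0.0286). The call was narrow. It was lost without control shRNA replicate 1 (-0.23, limma adjusted p = 0.0502), control shRNA replicate 3 (-0.25, 0.0529), YAP shRNA replicate 2 (-0.23, 0.0619) or YAP shRNA replicate 3 (-0.26, 0.0542).

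The control and YAP shRNA values did not overlap in 6 of the 10 genes, the 4 called ones with PTGES2 and PTGR1. Over all genes this held for 24.3%. The highest control value of HPGD and of PTGES and the lowest control value of PTGS1, PTGS2, PTGES2 and SLCO2A1 all came from control shRNA replicate 4. With that array left out, 4 members were called, the same as with all 8 arrays. The share called over all genes was then 19.6%, beside 16.7% with all 8 arrays.

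**Figure D3:**
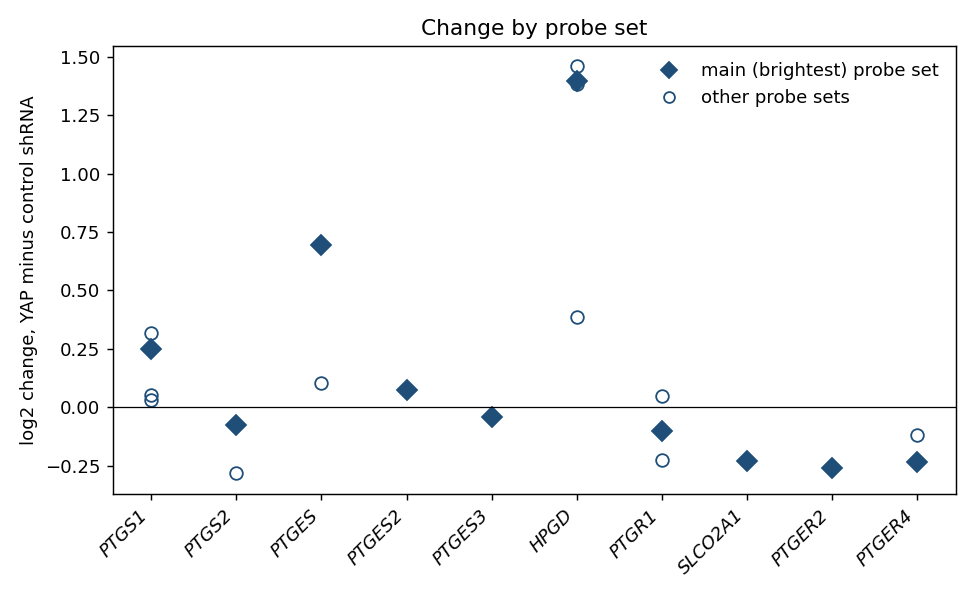
Log2 change, YAP shRNA minus control shRNA (vertical axis), of all 21 probe sets of the 10 genes. Filled diamonds are the main probe sets and open circles the others; 1 of the 4 HPGD probe sets (0.38) and the second PTGES probe set (0.11) lie below the main ones (1.39 and 0.70).

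The 10 genes had 21 probe sets, and 6 genes had more than 1. For HPGD, 3 of the 4 probe sets gave 1.39, 1.46 and 1.38, and the dimmest gave 0.38 (limma adjusted p over all probe sets = 0.0518). On that dimmest probe set the control arrays read 6.50, 6.44, 6.01 and 6.50 and the YAP shRNA arrays 6.75, 6.69, 6.86 and 6.69, so those groups did not overlap either. The main and the dimmest probe set changed by amounts that differed by 1.01 (two-sided exact permutation p = 0.0286). After Benjamini-Hochberg adjustment over all 11 pairs of a main and another probe set of these genes, the p was 0.105, above the threshold. With 4 against 4 arrays no exact permutation p below 0.0286 is possible. A pair at that floor could not pass on its own, so the adjusted p cannot decide whether the probe sets differ.

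PTGES had a second, dimmer probe set that gave 0.11 (limma adjusted p over all probe sets = 0.281). Its control arrays read 6.78, 6.84, 6.73 and 6.77 and its YAP shRNA arrays 6.95, 6.97, 6.78 and 6.84, and here the groups overlapped. The changes of the 2 probe sets differed by 0.59 (exact permutation p = 0.0286, adjusted over the 11 pairs 0.105). The mean of both gave a PTGES change of 0.40 (limma adjusted p = 0.00305), and the mean of the 4 HPGD probe sets gave 1.15.

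For PTGR1, a second probe set fell by 0.23 (limma adjusted p over all probe sets = 0.0105), with control arrays from 11.18 to 11.29 and YAP shRNA arrays from 10.97 to 11.04. Its change differed from that of the main probe set by 0.13 (exact permutation p = 0.0286, adjusted over the 11 pairs 0.105). The remaining one, with group means of 6.65 and 6.69, gave 0.05. For PTGS2, the second probe set gave -0.28 (limma adjusted p over all probe sets = 0.0688), and the difference from the main one was 0.21 (exact permutation p = 0.0857, adjusted 0.157). This test was added after the values were seen, and no pair passed it after adjustment. A pair at the smallest possible exact permutation p, 0.0286, could not have passed alone, so agreement between probe sets is not concluded. For PTGS1, the other probe sets gave 0.05, 0.03 and 0.32, none past the test, and for PTGER4 the other one gave -0.12, at levels below the lower quartile of genes.

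Further genes of this pathway, in 8 lists, included 97 measured genes, of which 15 rose and 9 fell, or 24.7%, with a median change of 0.03, beside 16.7% called and a median of 0.01 over all genes. The lists were written from general knowledge of the pathway with earlier results known. Without control shRNA replicate 4, 20 rose and 12 fell, while 3881 of all genes, or 19.6%, were called.

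Upstream of the cyclooxygenases, 1 of 12 genes of precursor supply rose and 1 fell, with a median of 0.04. ACSL4, which charges arachidonic acid with coenzyme A, read 11.95, 11.81, 11.83 and 11.98 on control arrays and 11.61, 11.52, 11.58 and 11.46 on YAP shRNA arrays. It fell by 0.35 (limma adjusted p = 0.0034). The call was lost with the mean of its probe sets (-0.30, limma adjusted p = 0.0649). It was also lost on the brightest probe set whose name ends in neither _x_at nor _s_at (-0.37, limma adjusted p = 0.293). These endings mark probes that may match more than 1 transcript. FAAH, a fatty acid amide hydrolase, rose by 0.26 (limma adjusted p = 0.0316). Its change stayed between 0.22 and 0.30 with each array left out, and the call was lost without control shRNA replicates 1 or 3 or any of the 4 YAP shRNA replicates (limma adjusted p from 0.0567 to 0.0862). Without control shRNA replicate 4, 3 rose and 2 fell.

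None of 7 synthases of other prostanoids passed the test by limma, with changes from -0.18 to 0.17 and 1 with an unadjusted p below 0.05. Among them 2 rose without control shRNA replicate 4. Of 8 genes of breakdown and transport other than the members, 2 rose and 0 fell. They were the organic anion transporters SLCO3A1 and SLCO4A1, at 0.27 (limma adjusted p = 0.00175) and 0.25 (limma adjusted p = 0.011). The other 6, with all the breakdown enzymes of the list, did not pass. With the mean of its probe sets SLCO4A1 stood at 0.17 (limma adjusted p = 0.0279). SLCO3A1 read 10.82 to 10.90 on control and 11.10 to 11.19 on YAP shRNA arrays. SLCO2A1, of the same family, had a change of -0.23 and did not pass.

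Of 8 further genes, other prostanoid receptors and the receptor regulator PTGFRN, 1 rose and 1 fell. The rise was that of PTGFRN, so no receptor gene among them rose. PTGER1 and PTGER3, which also encode prostaglandin E2 receptors, stood at 0.03 and -0.03 and did not pass. TBXA2R, the thromboxane A2 receptor, read 8.76, 8.69, 8.52 and 8.82 on control arrays and 8.20, 7.84, 8.07 and 8.001 on YAP shRNA arrays. It fell 1.59-fold, by 0.67 on the log2 scale (standard error 0.090; limma adjusted p = 0.00138). With the mean of its probe sets it fell by 0.35 (limma adjusted p = 0.0109). PTGFRN, a negative regulator of the prostaglandin F receptor, rose by 0.14 (limma adjusted p = 0.0416). That call was lost without control shRNA replicates 2 or 3 or any of the 4 YAP shRNA replicates (limma adjusted p from 0.0672 to 0.103), and with the mean of its probe sets, at 0.07 (limma adjusted p = 0.278).

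In the neighbouring lipoxygenase and leukotriene branch, 1 of 15 genes rose and 0 fell. It was LTA4H, the hydrolase that makes leukotriene B4, which read 12.36 to 12.41 on control and 12.65 to 12.71 on YAP shRNA arrays, a rise of 0.28 (limma adjusted p = 0.000905).

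Of 19 genes of the cAMP response that EP2 and EP4 feed, 2 rose and 4 fell, with a median of -0.03. PDE4D, a cAMP phosphodiesterase, read 9.25, 9.36, 9.26 and 9.53 on control arrays and 8.51, 8.78, 8.59 and 8.72 on YAP shRNA arrays. It fell 1.62-fold, by 0.70 (limma adjusted p = 0.000731), and by 0.35 with the mean of its probe sets (limma adjusted p = 0.00328). NR4A3, an immediate early nuclear receptor gene, fell by 0.41 and ADCY9, an adenylyl cyclase, by 0.32 (limma adjusted p = 0.00306 and 0.00786). With the mean of their probe sets neither passed, at -0.05 and -0.17 (limma adjusted p = 0.612 and 0.0809). NR4A2, a close relative of NR4A3, rose by 0.32 (limma adjusted p = 0.0415), a call lost without control shRNA replicate 1 or YAP shRNA replicates 2, 3 or 4 (limma adjusted p from 0.0629 to 0.11).

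Of 19 genes that induce PTGS2 or act on its mRNA, 6 rose and 1 fell, with a median of 0.09, while PTGS2 itself did not pass the test. Of the 6 rises, 1 was a gene that acts on mRNA, so 6 is not a count of inducers. IL1B, an inflammatory cytokine and inducer of PTGS2, read 10.00, 9.97, 9.96 and 10.03 on control arrays and 10.93, 11.05, 11.04 and 11.09 on YAP shRNA arrays, a rise of 1.04 (limma adjusted p = 8.89e-06). TNF rose by 0.48 (limma adjusted p = 0.0031). CEBPD, a transcription factor of the acute phase response, rose by 0.53 (limma adjusted p = 0.000826) and IL1A by 0.54 (limma adjusted p = 4.06e-05). On the brightest probe sets without the endings _x_at and _s_at, IL1A stood at -0.21 (limma adjusted p = 0.6) and CEBPD at 0.08 (limma adjusted p = 0.747). TNF could not be tested in that setting, since it has no probe set without such an ending. With the mean of each gene's probe sets IL1A stood at 0.17 (limma adjusted p = 0.345), and CEBPD at 0.31 (limma adjusted p = 0.0135).

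Of 9 measured genes known to act on HPGD transcription, 2 rose and 2 fell. Those that fell were ZEB1 and SNAI2, which encode transcriptional repressors. ZEB1 read 9.85 to 9.99 on control and 8.71 to 8.94 on YAP shRNA arrays and fell by 1.09 (limma adjusted p = 2.44e-05). SNAI2 read 10.94 to 11.09 and 10.27 to 10.43 and fell by 0.65 (limma adjusted p = 0.000109). SNAI1, from the same family, stood at -0.01 and did not pass (limma adjusted p = 0.951). Its group means lay below the lower quartile of gene levels (5.15), so its signal cannot be told from background. Whether SNAI1 itself changed is therefore not decided. HDAC1, a histone deacetylase, rose by 0.13 (limma adjusted p = 0.0297) and TCF7L2, the Wnt pathway transcription factor, by 0.20 (limma adjusted p = 0.02). The call on HDAC1 was lost without control shRNA replicates 2 or 3 or any YAP shRNA replicate (limma adjusted p from 0.0547 to 0.0891). That on TCF7L2 was lost without control shRNA replicates 1 or 3 or YAP shRNA replicates 1 or 2 (limma adjusted p from 0.0502 to 0.061).

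**Figure D4:**
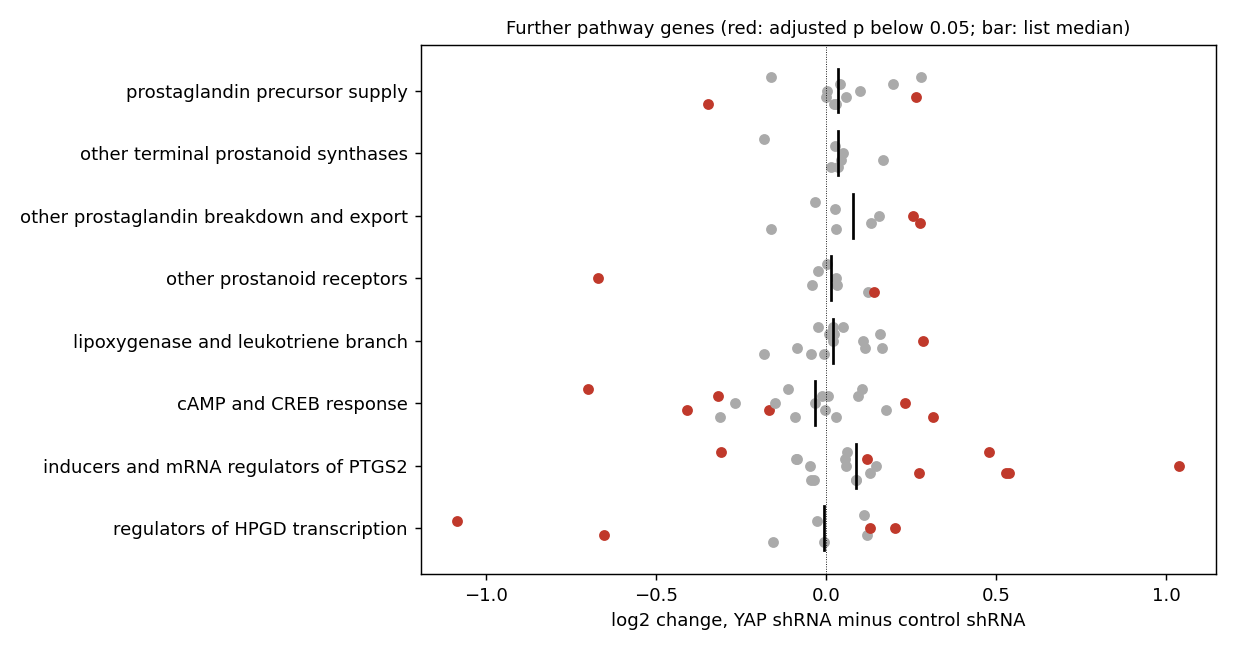
Log2 change, YAP shRNA minus control shRNA (horizontal axis), of each measured gene in the 8 further lists (rows). Red points passed the test over all genes, grey points did not, and the black bar is the list median. The medians lie between -0.03 and 0.09, with IL1B at 1.04 and ZEB1 at -1.09 as the outermost points.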

How the data were processed

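The authors' deposited table holds 1 value per probe set and array on a log2 scale, for 54675 probe sets on 8 HG-U133 Plus 2 arrays. The log base was inferred from the range, 1.72 to 14.89. How it was background-corrected, summarised and normalized is not given in the sources used here. RNA was column-purified and labelled with biotin, per the labels' protocols. Array medians lay between 6.22 and 6.25, so the deposited log2 values were used as they stood. On arrays, the number of arrays limits precision.

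GEO's platform annotation gave 1 symbol to 41097 probe sets, several to 1801 and none to 11777; only those with 1 symbol were used. The fit was limma 3.58.1 in R 4.3.3 over 19775 genes, YAP shRNA minus control shRNA, with eBayes and without a block, and Benjamini-Hochberg adjustment over all genes; it was tested on simulated data. Single values had two-sided exact permutation tests. Same-numbered arrays of the 2 groups had deviations correlating at -0.21 to 0.00, so numbers were not taken as pairs. No array pair was identical.

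The members and lists were chosen with earlier results of these data known. Genes named were the 10 members, YAP1, up to 4 called genes per list, and the 3 nearest to HPGD and to PTGS2. SNAI1, PTGER1, PTGER3 and the markers named with the cell types were added after their values were seen. Listed genes with no probe set of 1 symbol were not analysed here. Promoters came from RefSeq (GRCh38.p14), and figures from matplotlib 3.10.9. Alternatives were other scalings, limits on dim genes, other choices of probe set, other spread models, array weights, a replicate block, a stricter threshold and each array left out.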

Additional observations from a re-analysis of the deposited data

Results flagged for a closer look

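In 60 groups of 4 values, made of the members, YAP1 and the called genes named from the further lists, a single array stood far from its group in 4, and about 3 such groups would arise by chance. PTGER4 was high in YAP shRNA replicate 1, at 10.19 against 10.09 to 10.11 on the other YAP shRNA arrays. YAP1 was high in control shRNA replicate 3, at 12.77 against 12.59 to 12.61. LTA4H was high in YAP shRNA replicate 4, at 12.71 against 12.65 to 12.66. NR4A2 was low in control shRNA replicate 2, at 8.55 against 8.87 to 8.92.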

How the results depend on the processing

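HPGD and PTGES kept their direction and their call under all 18 alternatives that could be run for each, with log2 changes of 1.15 to 1.55 and 0.40 to 0.82. They could not be tested without the probe sets whose names end in _x_at or _s_at, since they have no other. These endings mark probes that may match more than 1 transcript. In that setting 2 members were called of 8 tested, 12 of 78 genes in the further lists and 2433 of 17100 genes in all. With an adjusted p below 0.01, 2 members (HPGD and PTGES), 15 listed genes and 1785 of all genes were called, against 4, 24 and 3294. Testing every probe set called 5580 of 41097. With a replicate block, 2106 genes were called, the members' 4 calls held, and 7 of the 24 calls in the further lists were lost; no same-numbered pair of arrays correlated best with its own number. Leaving out each array in turn gave 3 to 5 members, 17 to 32 listed genes and 2381 to 3881 of all genes. Median centring lost the calls on PTGFRN, NR4A2, HDAC1 and 1 other listed gene. No measure of background was at hand; the group means of SLCO2A1 and PTGER2, and the control mean of HPGD (6.996), lay below the median gene level of 7.44, and small changes at such levels are the least certain.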
